A study of Ovis aries with 9 samples.

Results

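The genes described here form the blood vessel wall and steer its growth: 40 names of endothelial surface and secreted proteins, vascular receptors, angiogenic ligands, endothelial and oxygen-responsive transcription factors, and mural (pericyte) genes. Members were chosen by name, and 37 of the 40 names were found among the 22605 loci of the expression table. All 37 reached the level required for testing, which was an FPKM of 1 or more in 3 or more libraries and left 13086 loci in all. FPKM counts sequenced fragments per length of transcript, scaled to the number of mapped fragments. VEGFD and a possible APLN locus, both names of angiogenic ligands, were reached only through other names in a RefSeq gene table and are given apart from the 37, and CLDN5, a tight junction protein, was not analysed here.

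RNA came from a back muscle, the longissimus dorsi, of Chinese merino sheep fetuses. There were 3 libraries at each of 3 stages of pregnancy, day 85 (D85), day 105 (D105) and day 135 (D135). The labels give no treatment, genotype or sex. Whether each library stands for its own fetus is not stated in them, and the p-values then reflect only library-to-library spread, which may be technical. Values below are listed in the order of replicates 1, 2 and 3, and each day shares its libraries between the comparisons it enters.

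Endothelial cells line every vessel and respond to vascular endothelial growth factors (VEGF) through the receptors KDR, FLT1 and FLT4 and the co-receptors NRP1 and NRP2. Pericytes sit outside the capillary endothelium, are recruited by platelet-derived growth factor B from endothelial cells acting on PDGFRB, and send back ANGPT1, which acts on the receptor TEK and steadies the vessel, while ANGPT2 is the context-dependent antagonist at the same receptor. In skeletal muscle, capillaries run along the fibres and pericytes cover them.

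Some facts of the whole table bear on the values. Whole tissue was sequenced, so fewer cells of a type and less RNA per cell cannot be told apart. D105 replicate 2 stood apart from the other libraries: its summed FPKM over 8 fibroblast markers was 4182, against 1936 and 1949 in the other D105 libraries, and over 8 tendon and cartilage markers 417, against 77.3 and 65.8. Over 6 adipocyte markers it was 116, against 7.66 and 9.63. The D135 libraries were uneven too, with tendon and cartilage sums of 50.1, 133 and 238 and adipocyte sums of 38.6, 79.9 and 17.5. Among the 37 vascular genes D105 replicate 2 was the highest D105 library for 18 and the lowest for 16. Counts, sums and single-gene results below include it unless a value without it is stated. The scale also shifted: over all tested loci, the median log2 change was -0.02 for D105 against D85, but -0.33 from D105 to D135 and -0.35 from D85 to D135. After median-of-ratios scaling these medians were -0.01, 0.02 and 0.01, so a change from D105 to D135 near the median can take either sign.

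Among the pericyte and other mural genes RGS5 rose, and MCAM and CSPG4 fell between D85 and D135 as deposited. RGS5, a regulator of G protein signalling and a widely used pericyte marker, was at 3.03, 3.18 and 3.13 FPKM at D85, at 12.9, 23.4 and 15.4 FPKM at D105, and at 33.0, 25.5 and 33.7 FPKM at D135. Every library of a later day was above every library of an earlier day. By limma on log2(FPKM + 1), a scale that understates the change of low genes, RGS5 rose by 2.11 ± 0.20 (standard error of the log2 change) from D85 to D105 (adjusted p = 0.0119). It rose by a further 0.83 ± 0.20 to D135 (adjusted p = 0.0152), which made 2.94 ± 0.20 over the whole interval (adjusted p = 0.000126). Without D105 replicate 2 the first step was 1.88 (adjusted p = 0.00472) and the second 1.06 (adjusted p = 0.00425). The 3 RGS5 calls were kept under both other scalings and with each library left out.

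MCAM, an adhesion molecule of pericytes, smooth muscle and endothelium, went the other way. Its levels were 31.6, 42.3 and 42.6 FPKM at D85, 39.5, 27.7 and 31.8 at D105, and 10.6, 13.4 and 17.2 at D135. The D85 and D105 libraries overlapped, and every D135 library lay below all of them. MCAM fell by 1.21 from D105 to D135 on the log2 scale (SE 0.20, adjusted p = 0.00415) and by 1.44 from D85 to D135 (adjusted p = 0.00118), and both calls were kept under both other scalings.

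CSPG4, the proteoglycan NG2 of immature pericytes, stood at 14.8, 16.8 and 11.4 FPKM at D85, 15.4, 11.1 and 11.8 at D105, and 6.10, 8.27 and 6.15 at D135. Again only the D135 libraries stood apart, below the rest. The fall from D105 to D135 was 0.81 on the log2 scale (adjusted p = 0.0109) as deposited, with -0.40 (adjusted p = 0.177) after median-of-ratios scaling and -0.51 (adjusted p = 0.103) after quantile normalization, so this call depended on the scale. The change from D85 to D135 was -0.96 (adjusted p = 0.00411), and -0.53 (adjusted p = 0.0630) after median-of-ratios scaling.

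PDGFRB, the pericyte receptor for platelet-derived growth factor B, was at 19.8, 18.6 and 20.2 FPKM at D85, 25.3, 33.5 and 21.5 at D105, and 19.9, 22.3 and 22.1 at D135. The D105 libraries were all above D85, yet no comparison passed the test as deposited (adjusted p from 0.158 to 0.519). From D85 to D135 the log2 change was 0.13 as deposited and 0.58 (adjusted p = 0.0257) after median-of-ratios scaling. These values belong to the higher of its 2 loci. The other locus was listed at 0 in 4 of the 9 libraries, at least 1 on each day, so the division of reads between the loci is uncertain.

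ABCC9 and KCNJ8 encode the regulatory and pore subunits of the vascular ATP-sensitive potassium channel, and are next to each other among the protein-coding genes of the RefSeq table. ABCC9 was at 23.4, 22.7 and 22.6 FPKM at D85, 24.9, 21.7 and 29.3 at D105, and 29.2, 26.4 and 28.2 at D135. Every D135 library exceeded every D85 library, with a log2 change of 0.28 (adjusted p = 0.0753, but 0.0395 without D105 replicate 2 and 0.0408 without D105 replicate 3) as deposited and 0.73 (adjusted p = 0.00302) after median-of-ratios scaling. KCNJ8 spread widely at D85, with 20.4, 0.171 and 4.12 FPKM, and narrowly afterwards, with 14.9, 16.3 and 16.0 FPKM at D105 and 14.0, 16.6 and 13.7 FPKM at D135. Its log2 change of 1.73 from D85 to D105 had a standard error of 0.86 and did not pass (adjusted p = 0.463). It was 2.77 without D85 replicate 1 and 0.68 without D85 replicate 2, and the change from D85 to D135, 1.64 with all libraries, was 2.68 without D85 replicate 1 (adjusted p = 0.00873). Whether the 0.171 FPKM is a failed estimate was not tested. Its partner ABCC9 did not show that spread at D85. Which cells of the whole muscle held the ABCC9 RNA was not tested.

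Because a ratio of 2 genes within a library does not depend on the library's scale, ratios place RGS5 beside MCAM and PDGFRB without the normalization. MCAM itself fell, so its ratio joins both changes. RGS5 relative to MCAM was 0.0960, 0.0753 and 0.0734 at D85, 0.327, 0.845 and 0.485 at D105, and 3.10, 1.90 and 1.96 at D135. The 3 days did not overlap, and the ratio was highest at D105 in replicate 2. RGS5 relative to PDGFRB was 0.153, 0.171 and 0.154, then 0.512, 0.699 and 0.715, then 1.65, 1.14 and 1.53, also without overlap. RGS5 thus moved from the lowest mural mean at D85 (3.11 ± 0.0747 FPKM, SD, n = 3) to the highest at D135 (30.7 ± 4.57 FPKM), where ABCC9 followed with 27.9 ± 1.42 FPKM. The spread of those top means at D135 overlaps, so their order there is not resolved.

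**Figure D1:**
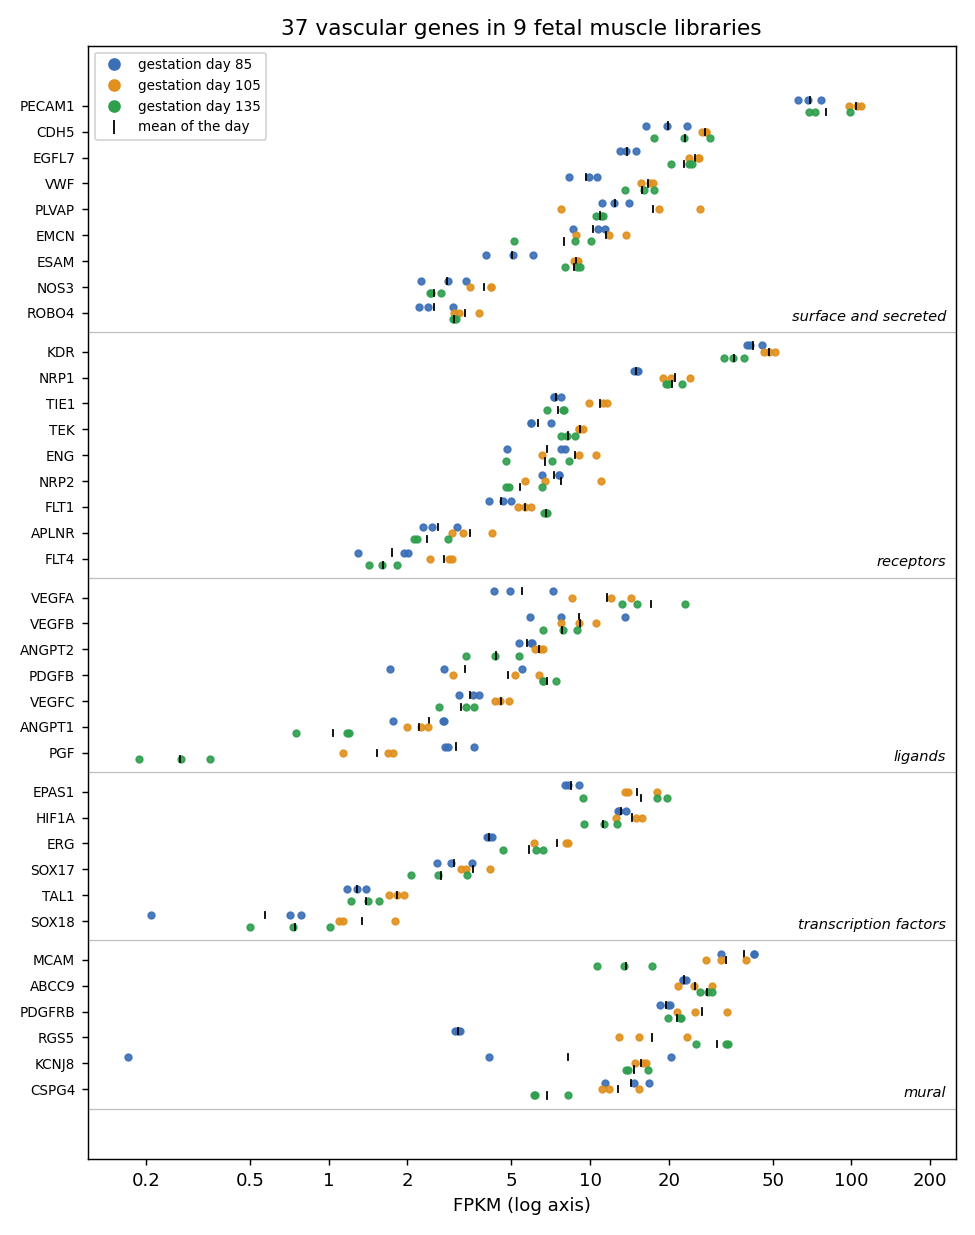
FPKM (log axis) of the 37 genes in each of the 9 libraries, grouped by role, with a point per library coloured by gestation day and a tick at the mean of the day. RGS5 moved from 3.11 FPKM at D85 to 30.7 at D135 and PGF from 3.08 to 0.271, while most endothelial genes moved by less than 1 unit on the log2 scale.

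Among the ligands, VEGFA rose and PGF fell between D85 and D135. VEGFA, the main angiogenic factor of hypoxic tissue and muscle fibres, stood at 4.29, 7.23 and 4.94 FPKM at D85, 8.52, 14.3 and 11.98 at D105, and 23.0, 15.1 and 13.3 at D135. The D85 libraries lay below all later ones, and D105 and D135 overlapped. VEGFA rose by 1.47 ± 0.26 on the log2 scale from D85 to D135 (adjusted p = 0.00307). Neither single step passed the test as deposited, with 0.96 to D105 (adjusted p = 0.203) and 0.52 from there to D135 (adjusted p = 0.151). The second step was 0.95 after median-of-ratios scaling (adjusted p = 0.0326).

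PGF, placental growth factor, which binds FLT1 and not KDR, was at 2.78, 3.61 and 2.86 FPKM at D85, 1.69, 1.14 and 1.76 at D105, and 0.351, 0.274 and 0.189 at D135. Every library of a later day was below every library of an earlier day. The step to D105 was -0.69 (adjusted p = 0.129) on the log2 scale, and PGF fell by 0.99 ± 0.14 from D105 to D135 (adjusted p = 0.00236) and by 1.68 ± 0.14 over the whole interval (adjusted p = 0.000189). The fall from D105 was 0.82 and 0.76 under the other scalings, and past the threshold in both. PGF was the lowest of the 37 genes at D135, with a mean of 0.271 ± 0.0812 FPKM (SD, n = 3).

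The VEGFA to PGF ratio within a library was 1.54, 2.004 and 1.73 at D85, 5.04, 12.6 and 6.79 at D105, and 65.6, 55.2 and 70.5 at D135. No day overlapped another, and without D105 replicate 2 the D105 libraries still lay between the other days. At D135 the ratio rests on a mean PGF of 0.271 FPKM, under the FPKM of 1 set for testing, so its size is uncertain. VEGFB, a ligand of FLT1 tied to muscle and fatty acid handling, showed wide spread at D85 (7.73, 13.6 and 5.91 FPKM) and later values within that range (10.5, 7.76 and 9.09 at D105, and 8.93, 6.58 and 7.87 at D135). VEGFA relative to VEGFB was 0.555, 0.531 and 0.837 at D85 and 2.58, 2.30 and 1.69 at D135, so VEGFA had the lower FPKM of the pair in every D85 library and the higher in every D135 library.

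VEGFC, the lymphatic growth factor that acts on FLT4, was at 3.15, 3.56 and 3.75 FPKM at D85, 4.54, 4.32 and 4.90 at D105, and 2.65, 3.61 and 3.35 at D135. Its D105 libraries were above those of both other days. The fall from D105 to D135 of 0.42 on the log2 scale passed the test as deposited (adjusted p = 0.0235), but the change was -0.05 (adjusted p = 0.840) after median-of-ratios scaling. The call was also lost without D105 replicate 1, D105 replicate 3 or D135 replicate 1 (adjusted p up to 0.0706).

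The angiopoietins were lower at D135 as deposited. ANGPT1 was at 1.76, 2.75 and 2.74 FPKM at D85, 2.25, 2.41 and 1.999 at D105, and 0.751, 1.201 and 1.18 at D135, with every D135 library below the rest. ANGPT2 was at 5.997, 5.33 and 5.94 FPKM at D85, 6.15, 6.60 and 6.46 at D105, and 5.37, 3.36 and 4.32 at D135, where D135 lay below D105 and overlapped D85. ANGPT1 fell by 0.66 from D105 to D135 (adjusted p = 0.0134), with -0.39 (adjusted p = 0.153) after median-of-ratios scaling. ANGPT2 fell by 0.49 (adjusted p = 0.0254), with -0.10 (adjusted p = 0.647) after that scaling, and this call was lost without any 1 of the D105 libraries (adjusted p = 0.0637 without replicate 2) or without D135 replicate 2 or 3. Within libraries, ANGPT2 relative to its receptor TEK was 1.01, 0.896 and 0.836 at D85, 0.677, 0.728 and 0.689 at D105, and 0.691, 0.384 and 0.528 at D135, so both later days lay below D85 and overlapped each other.

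PDGFB, the endothelial signal to pericytes, was at 1.72, 5.48 and 2.77 FPKM at D85, 6.40, 2.98 and 5.19 at D105, and 7.41, 6.60 and 6.59 at D135. The D135 libraries were above all others and close together, and D85 and D105 overlapped. PDGFB rose by 0.96 from D85 to D135 (SE 0.33, adjusted p = 0.0437), a call lost without D85 replicate 1 or 3, D105 replicate 3 or any 1 of the D135 libraries (adjusted p up to 0.126). The table lists VEGFD under its older symbol FIGF, at 4.02, 2.90 and 2.48 FPKM at D85, 1.93, 4.004 and 1.80 at D105, and 1.38, 1.36 and 1.40 at D135. Its fall of 0.78 from D85 to D135 (adjusted p = 0.0266) became -0.47 (adjusted p = 0.154) after median-of-ratios scaling. A locus that may be APLN, the ligand of APLNR, but that the RefSeq table classes as a long noncoding RNA, was at 10.6, 10.4 and 8.99 FPKM, then 10.3, 9.67 and 5.06, then 0.673, 4.32 and 6.80. Its change of -1.42 from D85 to D135 did not pass (adjusted p = 0.0544). It was -0.77 without D135 replicate 1 and -1.88 without D135 replicate 3, where it passed (adjusted p = 0.0216).

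Among the VEGF receptors, FLT1 rose from D85 to D135, and the falls of KDR and FLT4 from D105 to D135 depended on the scale. KDR, the main signalling receptor for VEGFA, was at 40.9, 39.9 and 45.6 FPKM at D85, 48.4, 46.2 and 51.2 at D105, and 39.0, 32.7 and 35.1 at D135. The D105 libraries were highest and the D135 libraries lowest, without overlap. FLT1, which binds VEGFA and PGF and can act as a decoy, was at 4.12, 4.98 and 4.63 FPKM at D85, 5.28, 5.95 and 5.62 at D105, and 6.82, 6.78 and 6.68 at D135. It was higher in every library of each later day and rose by 0.48 ± 0.09 from D85 to D135 (adjusted p = 0.00382), a call kept under both other scalings. The FLT1 step from D105 to D135 was 0.23 (adjusted p = 0.0738) as deposited. That step passed after median-of-ratios scaling (0.63, adjusted p = 0.00339) and after quantile normalization (0.56, adjusted p = 0.00556). KDR fell by 0.44 ± 0.10 from D105 to D135 as deposited (adjusted p = 0.0104), but its change was 0.01 (adjusted p = 0.967) after median-of-ratios scaling and -0.34 (adjusted p = 0.0704) after quantile normalization.

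The KDR to FLT1 ratio needs no scaling. It was 9.92, 8.03 and 9.86 at D85, 9.16, 7.76 and 9.10 at D105, and 5.71, 4.82 and 5.26 at D135. All 3 D135 libraries lay below the other 6, and D85 and D105 overlapped.

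FLT4, the receptor of lymphatic endothelium, was at 1.29, 2.01 and 1.95 FPKM at D85, 2.96, 2.45 and 2.90 at D105, and 1.83, 1.60 and 1.43 at D135, with D105 above both other days. Its fall of 0.52 from D105 to D135 (adjusted p = 0.0186) was -0.22 (adjusted p = 0.324) after median-of-ratios scaling, and was lost without D105 replicate 1 or 3 or D135 replicate 2 or 3 (adjusted p up to 0.0589). TIE1, an orphan receptor that pairs with TEK, had the same shape, with 7.28, 7.26 and 7.74 FPKM at D85, 11.6, 9.92 and 11.2 at D105, and 7.85, 6.84 and 7.97 at D135. TIE1 fell by 0.48 from D105 to D135 (adjusted p = 0.00702), with -0.06 (adjusted p = 0.732) after median-of-ratios scaling. TEK itself was at 5.97, 5.95 and 7.11 FPKM, then 9.09, 9.07 and 9.38, then 7.76, 8.75 and 8.18. Its 3 days were separate, with D85 lowest and D105 highest, and TEK was 0.33 higher at D135 than at D85 on the log2 scale (adjusted p = 0.0199), a call lost without D85 replicate 1, D85 replicate 2 or D135 replicate 2 (adjusted p up to 0.0696).

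NRP1, the co-receptor of arterial endothelium, was at 15.3, 15.1 and 14.7 FPKM at D85, 19.0, 24.02 and 20.4 at D105, and 19.6, 19.8 and 22.5 at D135. The later days overlapped each other and lay above D85, and NRP1 rose by 0.43 from D85 to D135 (adjusted p = 0.0119). Its change from D105 to D135 was -0.03 (adjusted p = 0.850) as deposited and 0.41 (adjusted p = 0.0326) after median-of-ratios scaling. NRP2, its venous and lymphatic counterpart, did not pass in any comparison, and D105 replicate 2 stood out with 10.97 FPKM against 6.72 and 5.64. The NRP2 log2 change from D85 to D105 was 0.04 with that library and -0.20 without it. The NRP1 to NRP2 ratio was 2.33, 1.99 and 1.93 at D85, 2.82, 2.19 and 3.61 at D105, and 4.10, 4.06 and 3.45 at D135. D135 lay above D85, and D105 overlapped both. ENG, a transforming growth factor beta co-receptor, ranged from 4.79 to 10.6 FPKM and APLNR, the apelin receptor, from 2.11 to 4.22 FPKM, with no comparison past the threshold for either.

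**Figure D2:**
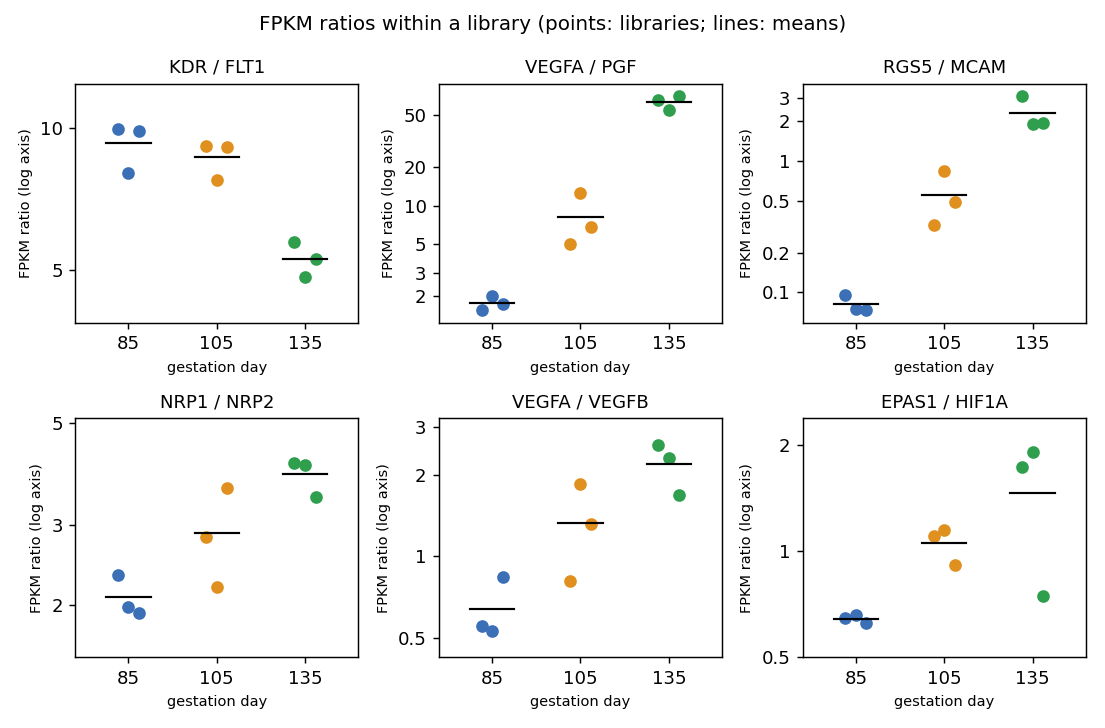
Ratio of FPKM of a gene pair in each library (log axis) by gestation day, with a point per library and a line at the mean of the 3 libraries. KDR relative to FLT1 fell below 6 in every D135 library, and VEGFA relative to PGF and RGS5 relative to MCAM separated all 3 days.

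Most endothelial surface and secreted genes were lowest at D85. PECAM1, the junction protein CD31 of endothelium that platelets and leukocytes also carry, had the highest FPKM of the 37 on every day, at 62.5, 68.5 and 76.4 at D85, 97.4, 105 and 109 at D105, and 68.6, 72.7 and 98.5 at D135. The D105 libraries exceeded D85, and D135 overlapped both. The log2 change of 0.58 from D85 to D105 did not pass (adjusted p = 0.180), though PECAM1 passed the limma test for any difference between days (adjusted p = 0.0330). From D85 to D135 its change was 0.19 (adjusted p = 0.317) as deposited. It was 0.66 (adjusted p = 0.0204) after median-of-ratios scaling and 0.25 (adjusted p = 0.331) with quantiles. CDH5, the cadherin of endothelial junctions, had the same layout: 16.4, 23.5 and 19.8 FPKM at D85, 27.8, 26.7 and 27.8 at D105, and 28.8, 17.5 and 22.8 at D135, with a change of 0.46 to D105 (adjusted p = 0.373). From D85 to D135 the CDH5 change was 0.19 (adjusted p = 0.436) as deposited. It was 0.64 (adjusted p = 0.0253) after median-of-ratios scaling and 0.42 (adjusted p = 0.116) with quantiles.

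EGFL7, a secreted protein of growing endothelium, was at 13.0, 13.7 and 14.97 FPKM at D85, 25.8, 23.8 and 26.2 at D105, and 23.9, 20.5 and 24.5 at D135. Both later days lay above D85 and overlapped each other. With RGS5 it was the other gene that rose from D85 to D105, by 0.82 ± 0.10 (adjusted p = 0.0288). This call was kept under both scalings, but lost in 7 of the 9 fits that left out a library, all but those without D135 replicate 2 or 3, with adjusted p up to 0.111 without D85 replicate 1 and 0.0511 without D105 replicate 2. EGFL7 rose by 0.68 from D85 to D135 (adjusted p = 0.00126).

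VWF, the clotting glycoprotein stored in endothelial granules, was at 8.33, 10.7 and 9.93 FPKM at D85, 17.0, 17.5 and 15.7 at D105, and 16.1, 13.6 and 17.6 at D135. ESAM, an adhesion molecule of endothelial tight junctions, was at 3.999, 5.07 and 6.07 FPKM, then 8.66, 8.88 and 9.03, then 9.12, 8.03 and 8.93. In both genes D85 lay below the later days, which overlapped. From D85 to D105 neither passed (0.74 with adjusted p = 0.0805 for VWF, and 0.72 with adjusted p = 0.113 for ESAM). From D85 to D135 VWF rose by 0.65 ± 0.12 (adjusted p = 0.00393) and ESAM by 0.69 ± 0.13 (adjusted p = 0.00375), and both calls were kept under both other scalings.

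NOS3, endothelial nitric oxide synthase, was at 2.26, 3.36 and 2.87 FPKM at D85, 4.17, 4.20 and 3.46 at D105, and 2.47, 2.44 and 2.69 at D135, with D105 above both other days. Its fall of 0.48 from D105 to D135 (adjusted p = 0.0200) was -0.13 (adjusted p = 0.507) after median-of-ratios scaling, and the call was lost without D105 replicate 1 or 2 (adjusted p = 0.0561 without replicate 2) or D135 replicate 1 or 2. PLVAP, the diaphragm protein of fenestrated and venous endothelium, was at 11.1, 12.4 and 14.0 FPKM at D85, 18.4, 7.77 and 26.2 at D105, and 11.2, 10.5 and 11.03 at D135. D105 replicate 2 was the lowest of all 9 libraries and the other D105 libraries were the highest. The change from D105 to D135 was -0.48 (adjusted p = 0.307) with all libraries, and without that library PLVAP fell by 0.95 (adjusted p = 0.00807). EMCN, a mucin of venous and capillary endothelium, ranged from 5.12 to 13.7 FPKM and ROBO4, an endothelial guidance receptor, from 2.21 to 3.77 FPKM, and neither passed in any comparison as deposited. ROBO4 was 0.19 higher at D135 than at D85 on the log2 scale as deposited, 0.55 (adjusted p = 0.00655) after median-of-ratios scaling and 0.53 (adjusted p = 0.00761) with quantiles.

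Of the 6 transcription factors, 1, ERG, passed the test for any difference between days (adjusted p = 0.0139), beside 43.2% of all tested loci. ERG, an ETS factor that maintains endothelial identity, was at 4.20, 4.09 and 4.02 FPKM at D85, 6.12, 8.22 and 8.12 at D105, and 6.23, 4.64 and 6.62 at D135. The D85 libraries were close together and below all later ones, yet the change of 0.72 to D105 did not pass (adjusted p = 0.128), nor did that of 0.41 from D85 to D135 (adjusted p = 0.0511, but 0.0368 without D105 replicate 1 and 0.0217 without D135 replicate 2). The latter change was 0.80 (adjusted p = 0.00409) after median-of-ratios scaling and 0.75 (adjusted p = 0.00610) with quantiles, and it also passed with either smaller pseudocount and with a filter on the mean. TAL1, a factor shared by endothelial and blood cell precursors, was at 1.17, 1.39 and 1.28 FPKM, then 1.83, 1.70 and 1.94, then 1.56, 1.41 and 1.22, with D105 above both other days and no call as deposited. From D85 to D135 the TAL1 change was 0.07 as deposited, 0.34 (adjusted p = 0.0368) after median-of-ratios scaling and 0.37 (adjusted p = 0.0333) with quantiles. SOX18, low in every library (0.210 to 1.80 FPKM), was also above both other days at D105, while SOX17, an arterial factor, ranged from 2.07 to 4.15 FPKM with overlapping days.

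EPAS1 and HIF1A encode the alpha subunits of the oxygen-responsive factors, EPAS1 being the one that endothelium is known for. EPAS1 was at 8.27, 9.08 and 8.02 FPKM at D85, 13.9, 18.0 and 13.6 at D105, and 19.7, 18.1 and 9.43 at D135. D85 lay below the rest, and D135 replicate 3 was far under the other D135 libraries. The rise of 0.76 from D85 to D135 passed (adjusted p = 0.0361) but was lost without any 1 of the D85 libraries or without D135 replicate 1 or 2 (adjusted p up to 0.112). HIF1A was at 12.8, 13.8 and 12.9 FPKM, then 12.6, 15.8 and 14.95, then 11.4, 9.48 and 12.7, and no comparison passed with all libraries (the change from D105 to D135 was -0.35, and -0.43 and past the threshold without D105 replicate 1 or D135 replicate 3). EPAS1 relative to HIF1A was 0.644, 0.658 and 0.622 at D85, 1.11, 1.15 and 0.909 at D105, and 1.73, 1.90 and 0.745 at D135, so HIF1A was the higher of the pair in every D85 library and the order was mixed afterwards.

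Counted together, 2 of the 37 genes rose and 0 fell from D85 to D105, where 0.199% of all tested loci were called, 0.145% higher and 0.0535% lower. At an unadjusted p under 0.05 the number was 21 of 37, beside 12.3% of all tested loci. All D105 libraries exceeded all D85 libraries for 22 of the 37, beside 8.00% of all tested loci, and the reverse held for 1, PGF, beside 10.4%. The median log2 change of the 37 was 0.32, beside -0.02 over all tested loci, and 33 of the 37 changes were above 0. Without D105 replicate 2, 1 gene rose (RGS5) and the median was 0.34.

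From D105 to D135, 1 of the 37 rose (RGS5) and 10 fell, where 39.5% of all tested loci were called, 4.47% higher and 35.0% lower. At an unadjusted p under 0.05 there were 16, beside 49.8%. Libraries did not overlap for 3 genes in the higher direction (6.43% of all tested loci) and for 14 in the lower direction (47.7%). The median of the 37 was -0.32, beside -0.33 over all tested loci, a difference of 0.01. Without D105 replicate 2, 1 rose and 9 fell, where 33.5% of all tested loci were called, and the median of the 37 was -0.28. With median-of-ratios scaling 5 rose and 2 fell, where 17.8% of all tested loci were called. Quantile normalization gave 2 of each, where 15.7% were called. The calls of RGS5, PGF and MCAM were the 3 of 11 kept under both scalings, and those 3 were also kept in all 9 fits that left out a library.

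From D85 to D135, 10 of the 37 rose and 4 fell, where 46.6% of all tested loci were called, 6.90% higher and 39.7% lower. At an unadjusted p under 0.05 there were 18, beside 54.3%. All D135 libraries exceeded all D85 libraries for 12 genes (9.42% of all tested loci) and lay below them for 7 (48.8%). The median of the 37 was 0.07, beside -0.35 over all tested loci, a difference of 0.42. Calls kept under both other scalings numbered 12 of 14. Higher at D135 were ESAM, VWF, EGFL7, FLT1, NRP1, TEK, VEGFA, PDGFB, EPAS1 and RGS5, and lower were PGF and MCAM. Median-of-ratios scaling gave 18 rises and 2 falls, and quantile normalization 15 and 3, where 27.8% and 27.1% of all tested loci were called. The calls gained under both were ROBO4, TIE1, ERG, TAL1 and ABCC9. Over all days, 20 of the 37 passed the test that asks for any difference, beside 43.2% of all tested loci.

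**Figure D3:**
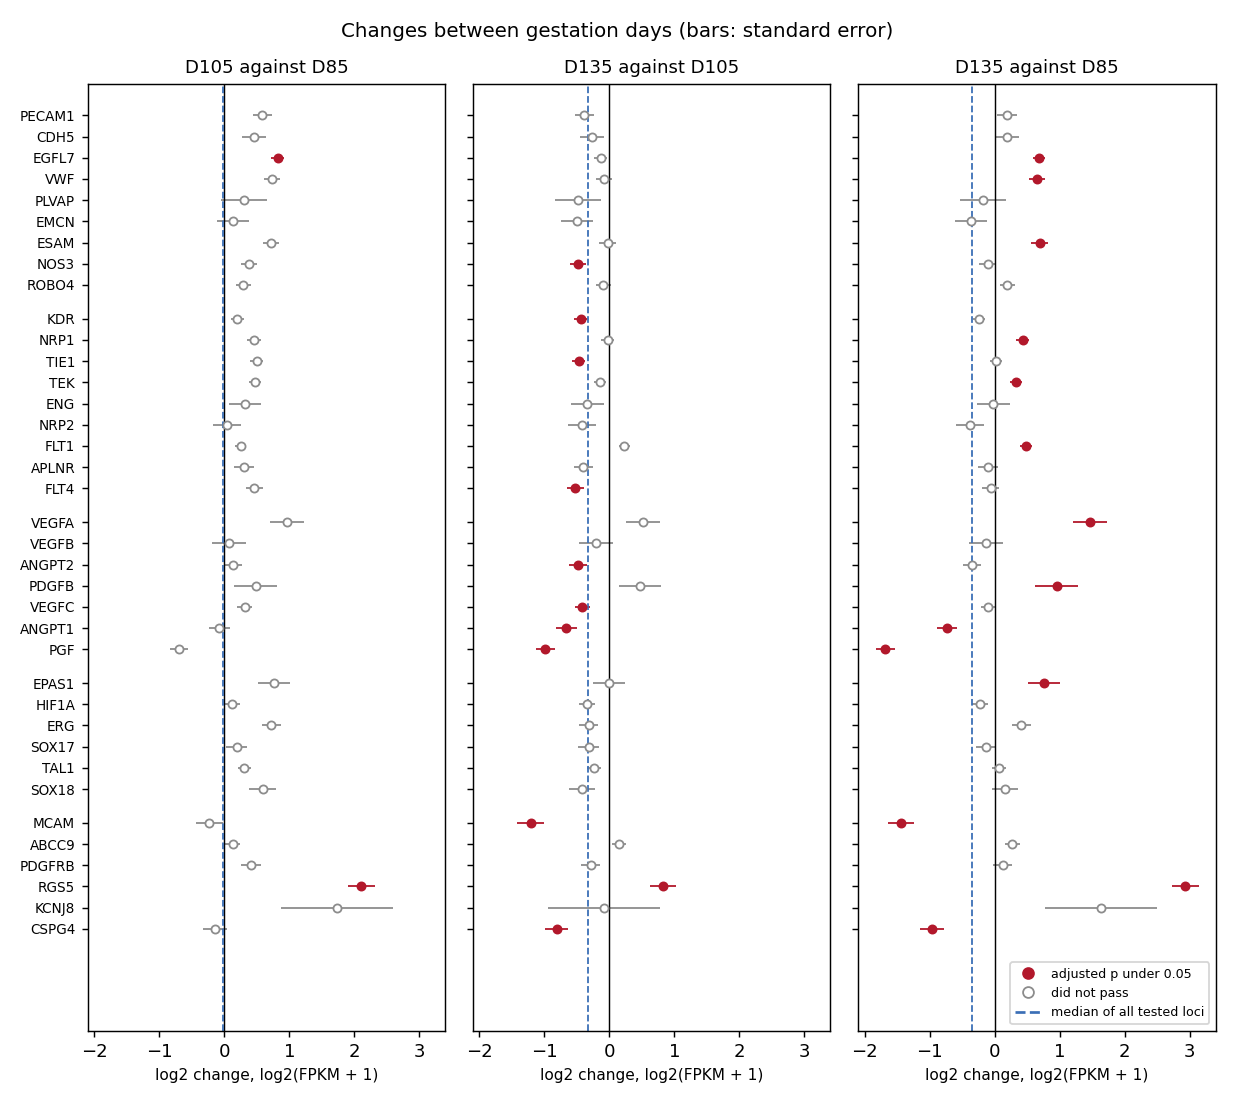
Log2 change of each of the 37 genes on the log2(FPKM + 1) scale in the 3 comparisons, with standard errors from limma, filled where the adjusted p was under 0.05. The dashed line is the median of all tested loci, which stood at -0.02, -0.33 and -0.35, and most genes lay to its right for D105 against D85 and for D135 against D85.

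As deposited, D105 had the highest mean for 27 of the 37 genes, 73.0%, beside 34.4% of all tested loci, and the lowest for 0 of them. The counts of highest and lowest days include D105 replicate 2 and were not repeated without it. That placing depended on the scale. After median-of-ratios scaling 10 genes (27.0%) were highest at D105 and 23 (62.2%) at D135, beside 21.3% and 42.5% of all tested loci. After quantile normalization the numbers were 16 (43.2%) and 17 (45.9%), beside 24.5% and 36.1%. D85 held the lowest mean for 20 genes as deposited, 33 with median-of-ratios scaling and 30 with quantile normalization. The matching shares of all tested loci were 18.9%, 34.6% and 32.5%. D105 held the lowest for 0 genes under each of these, beside 9.74%, 24.9% and 21.9% of all tested loci. A contrast of D105 with the mean of D85 and D135, chosen after the data had been seen, was above 0 for 36 of the 37, with a median of 0.33 beside 0.16 over all tested loci. It called 0 of them by limma (0.352% of all tested loci were called, 0.275% higher and 0.0764% lower), with 19 at an unadjusted p under 0.05 (24.4% of all tested loci).

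**Figure D4:**
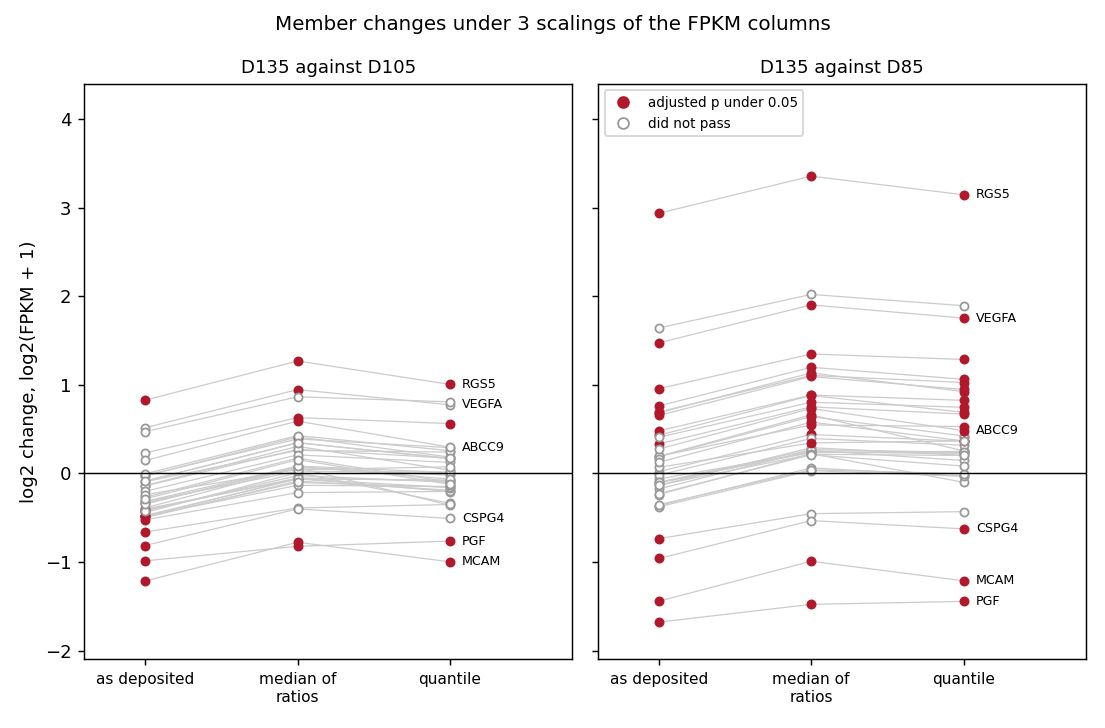
Log2 change of the genes in D135 against D105 (left panel) and D135 against D85 (right panel) with FPKM as deposited and under 2 other scalings (median of ratios, quantiles), filled where the adjusted p was under 0.05. Lines join a gene across scalings: from D105 to D135 most genes crossed or neared 0 once the scale was changed. RGS5 and FLT1 were among those that stayed above 0, and PGF and MCAM among those that stayed below it.

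The summed FPKM of 4 of the 5 roles was highest at D105 as deposited. The endothelial surface and secreted genes summed to 146 ± 15.4 FPKM at D85, 218 ± 9.48 at D105 and 175 ± 22.9 at D135 (SD, n = 3 libraries). Receptors summed to 94.0 ± 2.65, 118 ± 4.53 and 94.9 ± 5.89 FPKM, and mural genes to 107 ± 5.26, 131 ± 4.35 and 115 ± 4.83 FPKM. Transcription factors went from 30.6 ± 1.27 through 43.9 ± 3.87 to 37.5 ± 3.93 FPKM. After median-of-ratios scaling D135 was highest in each of these 4 roles, for example 214 against 194 for the surface and secreted genes. The ligand sum was 32.6 ± 7.78, 40.3 ± 0.942 and 40.7 ± 6.77 FPKM as deposited, with overlapping days. After median-of-ratios scaling it was 28.7 ± 5.95, 35.9 ± 1.38 and 49.7 ± 6.44.

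Relative to PECAM1 in the same library, 3 of the other 36 genes were higher in all D105 than in all D85 libraries, where 0.963% of all tested loci were so: ESAM, EGFL7 and RGS5. The reverse held for 10, beside 56.8% of all tested loci. At D135 against D85 the genes higher relative to PECAM1 were ESAM, VWF, EGFL7, VEGFA and RGS5, 5 of 36 beside 5.00% of all tested loci, and 12 were lower beside 49.5%. From D105 to D135, 6 were higher relative to PECAM1 (10.6% of all tested loci) and 3 were lower (15.2%), namely PGF, ANGPT1 and MCAM. The genes varied between libraries of a day about as other loci did, with median coefficients of variation of 12.4%, 12.4% and 14.9% at D85, D105 and D135, beside 15.4%, 15.6% and 15.5% over all tested loci.

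Other genes of the vessel wall were taken from lists of the same kind. Among the other endothelial genes, ECSCR was read from a locus that also holds TMEM173. Under median-of-ratios scaling 17.8% of all tested loci were called from D105 to D135, and 27.8% from D85 to D135. Under quantiles these shares were 15.7% and 27.1%, and they apply to the rescaled counts of each list below. Of 28 other tested endothelial genes, 0 passed from D85 to D105 by limma, beside 0.199% of all tested loci. At an unadjusted p under 0.05 there were 13, beside 12.3%. Of the 28 changes 25 were above 0, with a median of 0.36 beside -0.02 over all tested loci. After median-of-ratios scaling 0 fell and 3 rose from D105 to D135. As deposited 4 fell and 0 rose, beside 35.0% and 4.47% of all tested loci. PLXND1, the semaphorin receptor of endothelium, was the largest of those falls, from 15.7 ± 2.002 FPKM to 8.70 ± 1.29 (SD, n = 3; log2 change -0.79, adjusted p = 0.00664), and its call was lost under both other scalings. From D85 to D135, 13 rose under median-of-ratios scaling and 12 under quantiles, with 0 falls in each. As deposited 4 rose and 1 fell, beside 6.90% and 39.7% of all tested loci. ADGRF5, an adhesion receptor of endothelium, was among the 4 and went from 12.5 ± 0.320 to 18.7 ± 0.609 FPKM (0.55, adjusted p = 0.00193).

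Of 14 tested genes of arterial, venous or lymphatic endothelium, 5 fell from D105 to D135 and 0 rose as deposited, beside 35.0% of all tested loci that fell. With median-of-ratios scaling 1 of them fell, and with quantiles 2. PDPN, a lymphatic and fibroblast glycoprotein, fell from 6.77 ± 1.24 to 2.28 ± 0.399 FPKM (-1.24, adjusted p = 0.00400), a call kept under both scalings. EPHB4, the venous ephrin receptor, fell from 14.1 ± 1.22 to 7.89 ± 1.27 FPKM, and NOTCH1, an arterial fate receptor, from 10.1 ± 1.10 to 5.62 ± 0.756 FPKM as deposited. PROX1, the lymphatic master factor that muscle fibres also express, was at 2.96 ± 1.23 FPKM at D85 and 5.40 ± 1.28 at D135, and rose by 0.72 (adjusted p = 0.0401).

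Of 10 tested smooth muscle and further mural genes, 3 fell and 0 rose from D105 to D135, and 4 fell and 0 rose from D85 to D135 as deposited, beside 35.0% and 39.7% of all tested loci that fell. NOTCH3, the mural Notch receptor, fell from 14.3 ± 2.39 FPKM at D85 to 6.23 ± 0.724 at D135 (-1.08, adjusted p = 0.000865). ACTA2, smooth muscle actin, which immature muscle fibres also make, fell from 73.6 ± 11.1 to 22.8 ± 7.25 FPKM (-1.69, adjusted p = 0.00252). CNN1, smooth muscle calponin, fell by 2.20 over the same interval, with a wide spread at D85 (19.1, 19.8 and 54.2 FPKM), and it missed the threshold with median-of-ratios scaling (-1.78, adjusted p = 0.0581). After median-of-ratios scaling 2 of the 10 rose and 3 fell between those days.

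Of 18 tested genes of oxygen sensing or of the hypoxia response, 5 rose and 5 fell from D85 to D135 as deposited, beside 6.90% and 39.7% of all tested loci. Each of the 5 falls was smaller than the rises named below. ARNT and PFKFB3 of this list were read from loci that also hold CTSK and RBM17. Under median-of-ratios scaling 8 rose and 1 fell, and under quantiles 7 and 1. LDHA, lactate dehydrogenase, rose from 61.3 ± 15.8 to 194 ± 55.0 FPKM (1.63, adjusted p = 0.00136), and NDRG1, a hypoxia-induced gene, from 3.25 ± 1.15 to 7.996 ± 1.14 FPKM (1.11, adjusted p = 0.00348). The glycolytic regulator PFKFB4 rose from 1.37 ± 0.599 to 4.03 ± 0.976 FPKM. LDHA is also a gene of glycolytic muscle fibres, whose 6 markers summed to between 5767 and 8203 FPKM at D85 and between 14723 and 18629 FPKM at D135. The part of muscle fibres in these changes, and in that of VEGFA, was not tested.

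Of 16 tested angiogenesis inhibitors and further angiogenic factors, 8 fell and 0 rose from D105 to D135, and 7 fell and 1 rose from D85 to D135 as deposited, beside 35.0% and 39.7% of all tested loci that fell. Under median-of-ratios scaling 3 fell and 2 rose from D105 to D135, and under quantiles 4 and 2, while from D85 to D135 each scaling gave 5 falls and 3 rises. SEMA3A, a repulsive semaphorin that binds NRP1, fell from 7.18 ± 1.34 FPKM at D85 to 0.511 ± 0.0700 at D135 (-2.42, adjusted p = 0.000183). VASH2, a vasohibin, fell from 22.2 ± 0.454 to 4.17 ± 0.433 FPKM (-2.17, adjusted p = 0.00113), and COL18A1, the source of endostatin, from 14.8 ± 1.46 to 2.98 ± 0.324 FPKM (-1.99, adjusted p = 0.000141). COL15A1, a basement membrane collagen of vessels and muscle, was the gene of this list that rose from D85 to D105, from 69.2, 86.8 and 75.9 FPKM to 174, 164 and 170 (1.13, adjusted p = 0.0155). THBS2, an inhibitor made by fibroblasts, fell by 1.64 from D105 to D135 (adjusted p = 0.0137), a call lost under both other scalings. D105 replicate 2, with 24.7 FPKM of THBS2 against 11.3 and 10.4, was also the library with the highest fibroblast marker sum.

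Markers of other cells moved beside the vascular genes. Summed FPKM of 9 leukocyte markers ranged from 37.8 to 59.9 at D85, from 56.9 to 81.4 at D105 and from 44.7 to 53.5 at D135. Those of 4 erythroid markers stayed between 1.81 and 7.66 in all libraries. Schwann cell markers, of which 6 were summed, ranged from 15.2 to 21.3 at D85, from 25.6 to 37.6 at D105 and from 27.6 to 55.3 at D135. Of 8 proliferation genes, 8 fell from D105 to D135 as deposited, beside 35.0% of all tested loci, and 7 fell under each other scaling. Their sum went from between 81.2 and 90.2 to between 24.8 and 34.2 FPKM. The part of leukocytes in the PECAM1 and TAL1 levels, and of proliferation in the changes to D135, was not tested.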

How the data were processed

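The authors deposited FPKM values for every locus, with 1 column for each library, per the file headers. Cutadapt, Bowtie2 and TopHat2 are named in the submitters' processing notes, without versions. Which genome build, assembler and counter were used is not given in the sources used here. The table holds no counts, so depth in reads is unknown and no interval for counting error can be given. Median ratios of low values, from only 8 to 25 loci per library, were 0.918 to 1.13 (D85 replicate 1 as the unit). Those loci were kept only where their non-zero values were close together. The ratios were thus bound to be nearly equal and do not measure depth. Library totals ranged from 395797 to 489270 FPKM. Groups follow the age in the labels. The design text names several HiSeq models without tying them to libraries, so a batch could not be examined. Of all loci, 211 join several gene names.

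A gene was the locus whose name field holds its symbol, and for several loci the one of highest mean FPKM. The 13086 loci at FPKM 1 or more in 3 or more libraries were fitted as log2(FPKM + 1), pseudocount 1, with limma 3.58.1 (lmFit, contrasts, eBayes with a trend; R 4.3.3). All 9 libraries entered 1 fit without a block, and p-values were two-sided with Benjamini-Hochberg adjustment over all tested loci and a threshold of 0.05. The script was tested on simulated data. Members, lists and tests were chosen with earlier results of these data known. All members could be named, and from each further vascular list up to 4 called genes with the largest change and the 2 of highest mean FPKM. COL15A1 was named after its values were seen. Alternatives changed the pseudocount (0.1 and 0.5), the filter, the scaling, the variance model, library weights, the libraries fitted, a replicate block, the summing of loci and each library in turn. Tables and plots used Python 3.11.15, numpy 2.4.6, pandas 2.3.3 and matplotlib 3.10.9.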

Additional observations from a re-analysis of the deposited data

How the results depend on the processing

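From D85 to D105 the count of called genes was 2, with 0 under the replicate block, 1 when only these days were fitted and 1 to 2 with each library left out. The matching shares of all tested loci were 0.199%, 0.0611%, 0.158% and 0.108% to 0.209%. From D105 to D135 the count was 11, with 7 after median-of-ratios scaling, 4 after quantile normalization and 8 to 11 with each library left out. The shares there were 39.5%, 17.8%, 15.7% and 26.3% to 39.5%. In that comparison median-of-ratios scaling turned the sign of 18 of 36 genes and moved their median to 0.07, and quantile normalization turned 12 of 37. Among them, KDR (0.0092) was called as deposited and NRP1 (0.41) only after scaling. From D85 to D135 the count was 14, and 12 to 20 over all alternatives, beside 46.6% and 27.1% to 48.7% of all tested loci. Over any day it was 20, and 14 to 21, beside 43.2% and 21.7% to 46.2%. With the replicate block the last 3 counts were 12, 13 and 17, beside 33%, 42% and 35.2%. Replicate numbers are not said to pair libraries, and deviations of same-numbered libraries correlated between -0.0659 and 0.0605 (9 pairs), so the numbers were not taken as pairs. SOX18 gave no value after median-of-ratios scaling, since it missed the filter there. Of 3072 single-gene values under an alternative, 70 lost a call, 37 gained one and 95 changed sign, 93 of those not called under either setting. With 3 libraries per day, unknown depth and no statement that libraries are separate fetuses, small changes could not be resolved.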

Other observations

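Several vascular loci had single libraries far from the others of their day. MYCT1, an endothelial gene, was at 24.8, 28.6 and 2.71 FPKM at D105, against 15.7 to 19.4 at D85 and 28.2 to 31.3 at D135. RAMP2, a receptor-modifying protein of endothelium, was at 24.3, 31.6 and 8.14 FPKM at D85 and at 41.9, 17.8 and 46.3 FPKM at D105. The second PDGFRB locus was at 10.3, 0 and 9.86 FPKM at D85, 11.1, 0 and 0 at D105, and 8.99, 0 and 10.7 at D135. These values, like the 0.171 FPKM of KCNJ8 in D85 replicate 2, have no replicate of their own.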
